A study of Mus musculus with 6 samples.

Results

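Heat shock proteins and their partner chaperones were followed in early erythroid progenitors, the sorted red cell precursors of the fetal liver, from wild-type embryos and from embryos homozygous for a knockout of Eklf. Eklf (gene symbol Klf1) is an erythroid activator that binds CACCC-type sites through its zinc fingers. Members were the probe sets listed for 1 of 10 named genes alone (Hspa1a, Hspa1b, Hspa8, Hsp90aa1, Hsp90ab1, Hspd1, Hspe1, Hsph1, Dnajb1 and Hsf1), which gave 20 of the 45101 probe sets on the array. They cover 8 of the 10 genes, and Hsf1 and Hsp90ab1 were not analysed here. Of the 20 probe sets 19 had a mean signal above the filter on dim values, a signal of 98.6, and were tested.

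Chaperones bind unfolded or partly folded proteins and let them fold or refold instead of clumping. HSP70 proteins bind short stretches of a client in a cycle driven by ATP, J-domain proteins such as Dnajb1 hand them clients, and nucleotide exchange factors such as Hsph1 release them. HSP90 acts later on kinases and receptors, and the chaperonin of Hspd1 with its lid Hspe1 folds proteins inside mitochondria. Heat and other protein stress raise the inducible members through the transcription factor Hsf1, while Hspa8 and Hsp90ab1 are made constantly. In maturing erythroblasts HSP70 is known for protecting the transcription factor Gata1, and HSP90 for holding the haem-regulated kinase Eif2ak1.

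Each group comprised 3 arrays of RNA from liver cells at embryonic day 13.5, and both groups are given as C57BL/6 in the labels, whose source names number 1 liver per array. The knockout line, per the labels, was made from a strain 129 genomic clone in cells injected into C57BL/6 blastocysts, and knockout is homozygous (Eklf -/-). Before the sort, cells were marked with 7AAD (a dye taken up by dead cells) and antibodies against the erythroid surface proteins CD71 and Ter119. No source used here gives the gates. Signals are on the linear MAS5 scale of the deposited table, where every array has a trimmed mean of 500, and no measured value compares the level of 1 gene with that of another. The number of arrays limits the precision of every difference. The labels call the RNA samples independent and do not name litters or sort days, so p-values measure the spread between these samples, part of which may be technical.

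The 2 groups overlapped for Klf1, the targeted gene. Its values were 2508, 2706 and 4030 in the wild-type-labelled group and 3505, 1391 and 2545 in the knockout-labelled group, and whether the probe set lies in the deleted part is unknown here. Groups are therefore called by their labels. Markers of other cells also moved with the labels: 8 of 8 tested hepatocyte markers and 6 of 8 stromal and endothelial markers rose, 7 of 7 lymphoid markers fell and 6 of 6 megakaryocyte markers rose. Summed over the list, hepatocyte markers ran from 7420 to 8188 in the wild-type-labelled group and from 97268 to 167706 in the knockout-labelled group, lymphoid markers from 21662 to 32467 and from 644 to 1065, stromal and endothelial markers from 1922 to 2231 and from 16970 to 25666, and megakaryocyte markers from 6449 to 7341 and from 29370 to 38532. Of 8 tested macrophage markers 6 rose and 1 fell, with sums of 10504 to 12822 and 11296 to 14422. Of 6 erythroid markers 5 rose and Kit fell, with sums of 18997 to 20479 and 50800 to 72083. No marker sum was 0 in either group, the part of these cells in the differences below was not tested, and in such bulk samples fewer cells of a type and less RNA per cell cannot be told apart. Controls of RNA integrity did not separate the groups: the 3′ to 5′ signal ratio of Gapdh was 0.819 to 0.881 and 0.797 to 0.854, and that of actin 1.13 to 1.22 and 1.07 to 1.22. Spiked hybridisation controls were brighter by 1.6- to 4.16-fold on the knockout-labelled arrays.

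Most heat shock probe sets were not called different between the labelled groups, and a missed call does not show that a difference is absent. At an adjusted p under 0.05 (limma, adjusted over all 27023 probe sets tested), 2 of the 19 rose on the knockout-labelled arrays, 1 fell and 16 did not pass, that is 15.8% called. Over all probe sets tested 43.8% were called, 28.1% upward and 15.7% downward. At the brightest probe set of each gene 0 of 8 passed, where 2 had an unadjusted p under 0.05 and 45.8% of all 12799 genes tested were called at their brightest probe set. The median log2 difference, knockout minus wild type, was 0.34 over the 19 probe sets and 0.32 over all probe sets tested. Brightness differed between these sets, since most of the 19 had a mean log2 signal of at least 10. The median was 0.94 in the 3200 dimmest genes tested and -0.25 in the 3200 brightest. The split of higher and lower calls depended on the scaling, with 2 and 2 after quantile normalization, 4 and 1 after cyclic loess and 0 and 5 after median centring, where the median over all probe sets tested moved from 0.32 to 0.01, 0.03 and -0.49. The groups overlapped for 12 of the 19 probe sets, lay fully apart upward for 6 and downward for 1, against 57.6% apart over all probe sets tested, 37.5% upward and 20.1% downward. At the brightest probe sets 3 genes lay apart upward and 5 overlapped, against 59.3% of all genes apart, 34.1% upward and 25.2% downward.

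**Figure D1:**
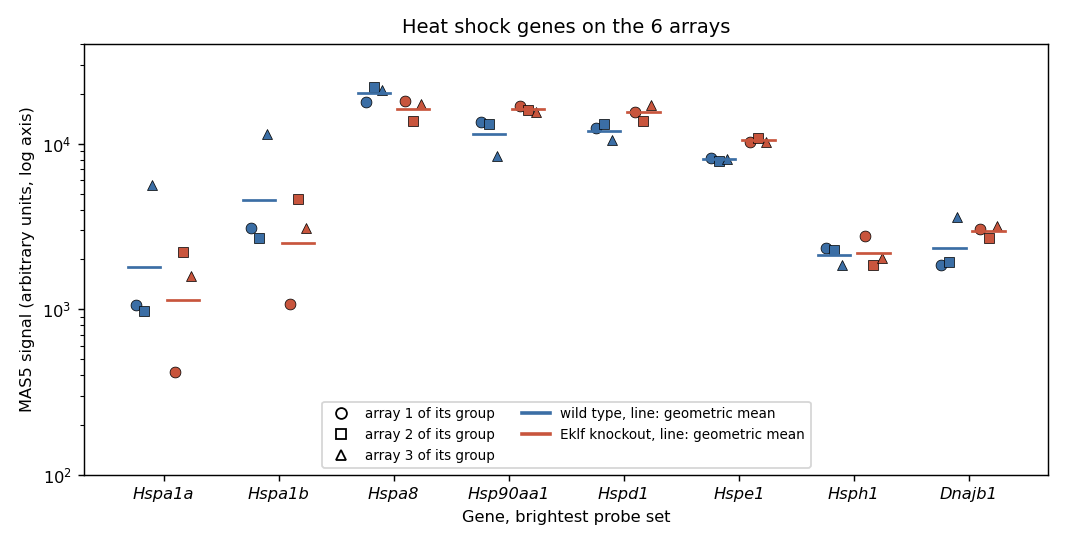
MAS5 signal on a log axis of 8 heat shock genes at their brightest probe set, with 1 point per array and a line at the geometric mean of the 3 arrays of each group. Hspa1a and Hspa1b spread widely within both groups, with wild-type-labelled array 3 highest and knockout-labelled array 1 lowest, while Hspe1 is tight and lies at 7860 to 8180 against 10237 to 10840.

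The inducible HSP70 genes varied more among arrays of 1 genotype than between genotypes. Hspa1b, in its brightest probe set, gave 3087, 2676 and 11365 in the wild-type-labelled group and 1077, 4649 and 3111 in the knockout-labelled group. Wild-type-labelled array 3 was highest and knockout-labelled array 1 lowest, and the groups overlapped. The means were 5709 ± 4903 and 2946 ± 1792 (SD, n = 3), and the log2 difference was -0.86 ± 0.62 (SE, limma adjusted p = 0.277). Without wild-type-labelled array 3 it was -0.20, and without knockout-labelled array 1 it was -0.26. It passed downward after median centring alone, at -1.68 (limma adjusted p = 0.0398). Its other probe sets, 1427126_at and 1427127_x_at, gave -0.80 and -0.83, both with SEs of 0.73 to 0.74, and neither passed.

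Hspa1a encodes the other inducible HSP70 protein, next to Hspa1b on chromosome 17. Its 1 probe set gave 1064, 972 and 5590 in the wild-type-labelled group and 420, 2217 and 1579 in the knockout-labelled group. The order of the arrays at both ends was that of Hspa1b, array 3 of the wild type at the top and array 1 of the knockout at the bottom. The difference in log2 was -0.66 ± 0.74 (SE, limma adjusted p = 0.487), and it became 0.16 without wild-type-labelled array 3 and 0.06 without knockout-labelled array 1. The 2 genes are close copies of each other, so probe sets listed for 1 may also catch the other, and their signals are no independent measurements.

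How alike they are can be seen upstream of their starts. RefSeq (GRCm38.p6) places Hspa1b at chr17:34956429-34959238 and Hspa1a at chr17:34969359-34972156, both on the minus strand with 10120 bases between them. The 250 bases before each start are shown because they carry the same short heat shock element, in capitals: 2 facing units of the site bound by Hsf1, searched as GAANNTTC or TTCNNGAA, which read the same on both strands.
Hspa1a: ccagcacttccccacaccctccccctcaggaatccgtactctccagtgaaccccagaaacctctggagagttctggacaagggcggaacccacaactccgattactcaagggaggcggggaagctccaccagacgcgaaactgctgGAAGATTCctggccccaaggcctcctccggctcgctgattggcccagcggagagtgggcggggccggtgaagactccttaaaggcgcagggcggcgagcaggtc
Hspa1b: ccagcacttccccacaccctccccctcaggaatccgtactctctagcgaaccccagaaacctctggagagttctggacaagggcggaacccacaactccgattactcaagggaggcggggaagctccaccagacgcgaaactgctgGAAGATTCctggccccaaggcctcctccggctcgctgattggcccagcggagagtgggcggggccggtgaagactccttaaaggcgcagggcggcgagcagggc
The stretches are chr17:34972157-34972406 (Hspa1a) and chr17:34959239-34959488 (Hspa1b). They differ at 3 positions, counted from 1 at the 5′ end with the Hspa1a base first: C44T, T47C and T249G. In both the match starts 104 bases before the gene's start. Among 32851 RefSeq promoter windows of 300 bases, which run from 250 bases before the start to 50 after it, 15.1% hold such a pair of units. The letters CCNCNCCC, a core of the site bound by Klf1, were also in both windows on either strand, as in 49.5% of all windows. These matches describe letters and not binding.

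Spread within groups set the inducible HSP70 genes apart. The pooled within-group SD of log2 signal was 1.12 to 1.35 for the 4 probe sets of Hspa1a and Hspa1b, from the 98th percentile of all probe sets tested upward, against a median of 0.34. Among the 6541 probe sets with a mean log2 signal of at least 10, where the median was 0.23, all 4 stood at or above the 99.9th percentile. At the other end Hspe1, in probe set 1450668_s_at, had an SD of 0.04, at the 0.104th percentile of all probe sets tested.

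Immediate early genes, which are switched on within minutes of a stimulus, also varied widely over the arrays. The summed signal of 8 of them was 8074, 7337 and 39111 in the wild-type-labelled group and 3477, 9339 and 6106 in the knockout-labelled group. The arrays with the highest and the lowest sum were the same as for Hspa1a and Hspa1b, although single genes such as Atf3 had another order. Fos, a subunit of the AP-1 factor, gave 2677, 2318 and 12436 against 369, 1817 and 511, and Jun, its partner, gave 779, 525 and 8177 against 517, 2145 and 1581. Over the 8 genes Fos and Ier2 fell, Atf3 rose and 5 did not pass. What these genes share with the spread of Hspa1a and Hspa1b was not tested. Likeness to the pattern of Hspa1b was ranked by root mean square distance of centred log2 signals over the 6 arrays. Among the genes tested, leaving out symbols that start with Gm or contain Rik, the 3 nearest were Hspa1a (0.222), Zfp36 (0.325) and N4bp3 (0.411). Zfp36 is an RNA-binding protein that shortens the life of mRNAs. Zfp36 gave 2421, 2387 and 8462 against 664, 2132 and 1716, so the same arrays stood at both ends.

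**Figure D2:**
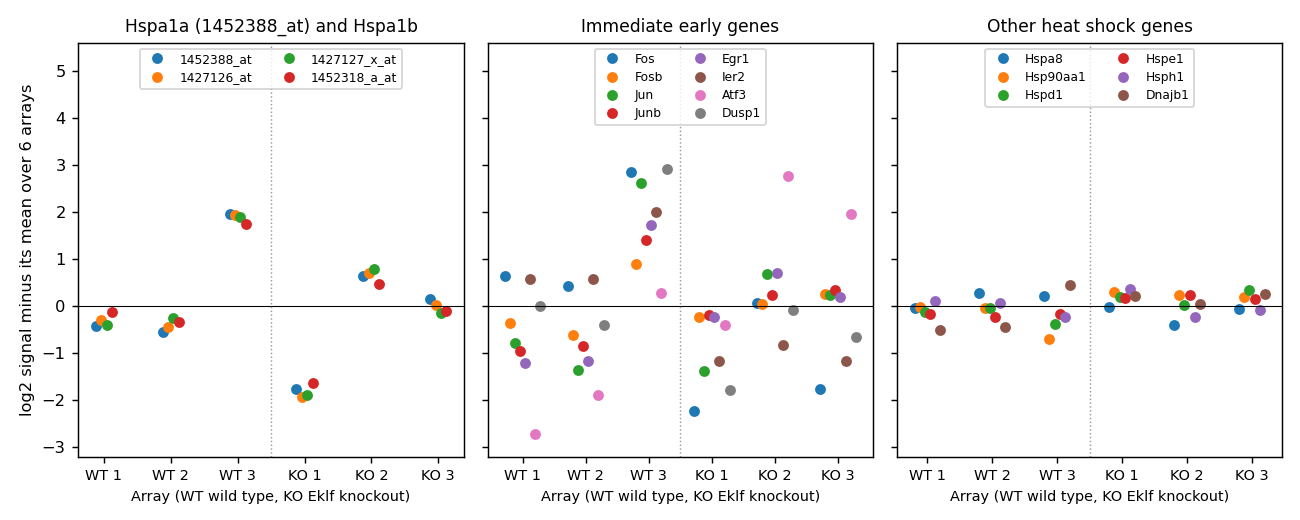
Signal of each gene or probe set on each array as log2 units from its own mean over the 6 arrays, for the 4 probe sets of Hspa1a and Hspa1b, 8 immediate early genes and the other 6 heat shock genes at their brightest probe set. In the left panel wild-type-labelled array 3 is highest and knockout-labelled array 1 lowest, and in the right panel every point lies within 1 log2 unit of 0.

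Hspa8, the constant HSP70 protein of the cytosol, was bright and its probe sets did not agree in sign. Its brightest probe set, 1455789_x_at, gave 17756, 22086 and 21194 in the wild-type-labelled group and 18039, 13686 and 17473 in the knockout-labelled group. The groups overlapped, at -0.32 ± 0.18 log2 units (SE, limma adjusted p = 0.17). The other bright sets, 1420622_a_at and 1420623_x_at, gave -0.04 ± 0.20 and 0.30 ± 0.17. The dim set 1431182_at was higher on all 3 knockout-labelled arrays, with 687, 737 and 718 against 530, 531 and 642, and missed the threshold at 0.34 ± 0.19 (SE, limma adjusted p = 0.168). Other scalings gave calls in both directions. The brightest set passed downward after quantile normalization (-0.77, limma adjusted p = 0.00377) and median centring (-1.13, 0.00572), 1420622_a_at passed downward after median centring (-0.86, 0.0338), and 1420623_x_at passed upward after cyclic loess (0.47, 0.0261). The dim set passed upward with array weights (0.42, 0.0406). Hspa8 lies at chr9:40801276-40805202.

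Hsph1 encodes an HSP110 protein that releases nucleotide from HSP70, and Dnajb1 the main J-domain partner of inducible HSP70. Hsph1 gave 2331, 2277 and 1846 in the wild-type-labelled group and 2786, 1850 and 2052 in the knockout-labelled group in its brightest probe set. The groups overlapped, at 0.04 ± 0.20 log2 units (SE, limma adjusted p = 0.889), and its other probe set gave 0.34 ± 0.28. Knockout-labelled array 1, lowest for Hspa1a and Hspa1b, was the highest for Hsph1.

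The 2 probe sets of Dnajb1 went opposite ways. Probe set 1416755_at fell, from 2416, 2479 and 3319 to 1846, 979 and 1301, with no overlap. Its log2 difference was -1.03 ± 0.24 (SE, limma adjusted p = 0.00999), a 2.04-fold decrease, and it passed downward in all 16 alternatives that hold this probe set (-1.84 to -0.80). Probe set 1416756_at, the brighter, gave 1840, 1930 and 3595 in the wild-type-labelled group and 3049, 2711 and 3163 in the knockout-labelled group, at 0.34 ± 0.25 (limma adjusted p = 0.283). There wild-type-labelled array 3 stood above the other wild-type-labelled arrays and above every knockout-labelled one. Without it this probe set passed upward, at 0.66 (limma adjusted p = 0.00804). Which transcripts of Dnajb1, at chr8:83608175-83612653, each probe set reads is not given in the sources used here, so no direction is given for the gene. The mean of both sets was -0.34 (limma adjusted p = 0.242).

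Hsp90aa1, the stress-inducible HSP90 protein, was bright in 3 probe sets, and none of these passed. In the brightest, 1438902_a_at, it gave 13492, 13228 and 8407 in the wild-type-labelled group and 16800, 16025 and 15600 in the knockout-labelled group. All knockout-labelled arrays were above all wild-type-labelled ones, and the log2 difference of 0.50 ± 0.20 (SE, limma adjusted p = 0.0753) missed the threshold. Wild-type-labelled array 3 was the lowest here, as in 1426645_at (10709, 11498 and 4486 against 12938, 11392 and 13006) and 1437497_a_at (13129, 13720 and 7135 against 12381, 13846 and 15341). The array with the most Hspa1a and Hspa1b signal thus had the least Hsp90aa1 signal in the 3 bright probe sets. The dim probe set 1433251_at rose, from 54, 136 and 82.1 to 237, 152 and 302, a difference of 1.39 ± 0.45 (SE, limma adjusted p = 0.0337). Its wild-type-labelled mean of 90.7 lay under the filter signal, so that it was tested through the knockout-labelled arrays, and 7 of 15 alternatives ended the call, namely quantile normalization (0.343), cyclic loess (0.378), median centring (0.306) and the fits without wild-type-labelled array 1 (0.113) or array 3 (0.0597) or knockout-labelled array 1 (0.081) or array 3 (0.112). The fifth probe set, 1441827_x_at, was under the filter, at 64.5, 90.7 and 24.5 against 109, 15.1 and 25.2, and was not tested. RefSeq places Hsp90aa1 at chr12:110691036-110696395.

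Of the 3 probe sets of the mitochondrial chaperonin pair 1 rose, a set of Hspe1, and 2 did not pass. In each the groups lay apart upward, as for 37.5% of all probe sets tested. Hspd1, the barrel-forming HSP60, gave 12403, 13120 and 10455 in the wild-type-labelled group and 15549, 13734 and 17214 in the knockout-labelled group. Its log2 difference of 0.37 ± 0.17 (SE, limma adjusted p = 0.0956) missed the threshold, and it passed after cyclic loess (0.56, limma adjusted p = 0.0322). Hspe1, the lid of the barrel, gave 8180, 7860 and 8132 against 10287, 10840 and 10237 in its brighter probe set, 1450668_s_at. The means were 8057 ± 172 and 10455 ± 335 (SD, n = 3), a 1.3-fold difference of 0.38 ± 0.14 on the log2 scale (SE, limma adjusted p = 0.051). The other probe set, 1422579_at, rose from 1951, 1639 and 1737 to 2331, 3001 and 2677, by 0.58 ± 0.16 (SE, limma adjusted p = 0.0188).

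The call of Hspe1 lay near the threshold in both probe sets. The brighter passed in 6 of the 17 alternatives fitted to it. Among them were 1 probe set per gene (limma adjusted p = 0.0409), quantile normalization (0.0121), cyclic loess (0.00727) and the fit without knockout-labelled array 1 (0.0363). The mean of both probe sets also passed, at 0.48 (limma adjusted p = 0.0212). The dimmer lost its call without wild-type-labelled array 2 (0.0708), knockout-labelled array 2 (0.0726) or knockout-labelled array 3 (0.0605), without a variance trend (0.0508) and after median centring. Median centring turned Hspd1 to -0.44 and Hspe1 to -0.44 and -0.23. The differences of 0.37, 0.38 and 0.58 stand beside the median of 0.32 over all probe sets tested. Median differences varied with brightness, from 0.94 in the 3200 dimmest genes tested to -0.25 in the 3200 brightest.

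Hspd1 and Hspe1 lie head to head on chromosome 1, at chr1:55077833-55088243 and chr1:55088148-55091317, and are read in opposite directions. Their spans overlap, since Hspd1 has more than 1 start in RefSeq. The stretch chr1:55088018-55088117, from 130 to 31 bases before the Hspe1 start on the plus strand, is shown because its element lies in the Hspe1 window and in 1 of the 2 Hspd1 windows, with units of the heat shock element in capitals. It precedes the inner Hspd1 start and lies inside the Hspd1 span, downstream of the outer start.
Hspe1: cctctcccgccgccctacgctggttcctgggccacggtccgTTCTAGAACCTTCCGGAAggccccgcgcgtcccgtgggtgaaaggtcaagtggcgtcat
The run in capitals holds 2 overlapping matches to the longer form of 3 units, GAANNTTC followed directly by NNGAA, on either strand. Of the 32851 windows 0.603% hold this longer form. Of the 9 windows of the 6 members in the table, 6 held a pair of units and 4 the longer form, in 1 window each of Hspd1 and Hspe1 and in both of Hsph1, where it lies after the start and is not shown. The 2 windows of Dnajb1 held neither. Such counts are not of separate elements. The 2 windows of Hsph1 overlap, Hspd1 and Hspe1 share the same bases, and Hspa1a and Hspa1b are close copies. Hspa8 and Hsp90aa1 are not in the table.

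**Figure D3:**
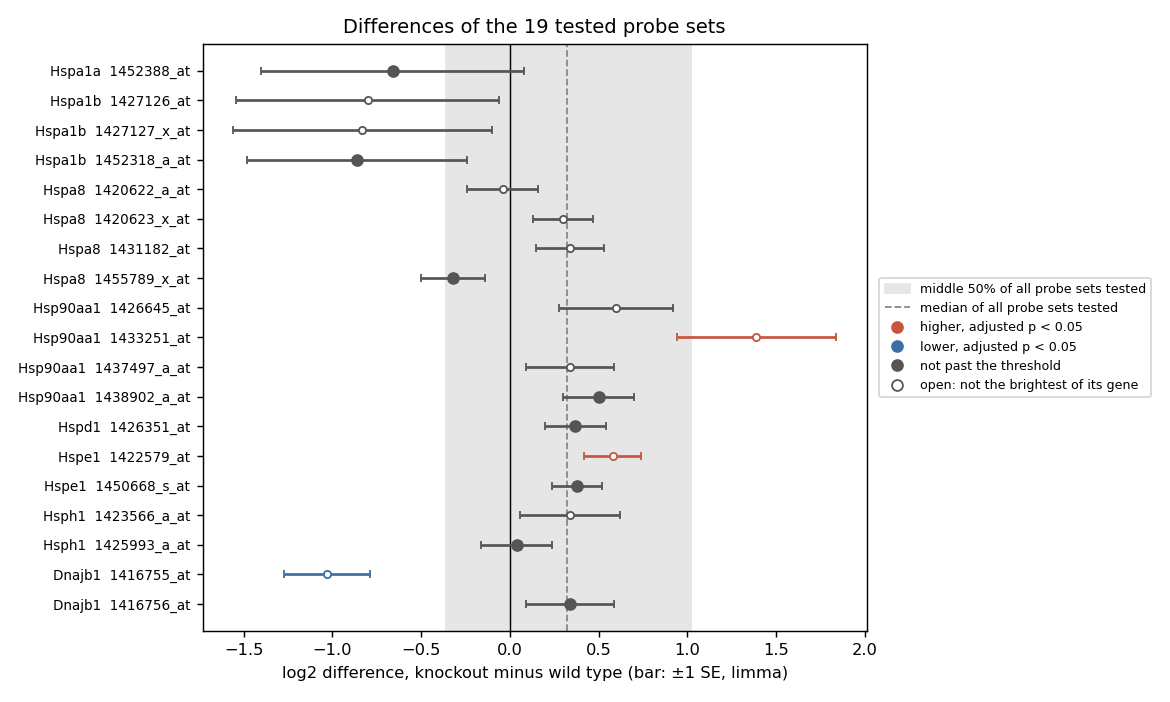
Log2 difference, knockout minus wild type, with 1 SE from limma for the 19 tested probe sets, with filled points for the brightest probe set of each gene. Most points lie within the grey band between the quartiles of all probe sets tested, from -0.36 to 1.02. The wide bars of Hspa1a and Hspa1b have SEs of 0.62 to 0.74, and 1416755_at of Dnajb1 is the 1 probe set past the threshold downward.

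Other chaperone genes, each taken once at its brightest probe set, moved in both directions. Of 124 tested genes 25 rose, 14 fell and 85 did not pass, beside 26.1% upward and 19.7% downward over all genes tested, and their median difference was 0.02 beside 0.14. The split was 19 and 12 after quantile normalization, 19 and 8 after cyclic loess and 8 and 67 after median centring. Of the 25 that rose 5 had a wild-type-labelled mean under the filter. Counts below overlap, since 27 of the genes stand in more than 1 list.

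Calls in the HSP70 family and its release factors depended on the scaling, and in the family also on the probe set. At the brightest probe set, 0 of 8 tested further members of the HSP70 and HSP110 family passed in either direction. Of 10 nucleotide exchange factors 0 passed. Among all genes tested 26.1% passed upward and 19.7% downward. Hspa5, the HSP70 of the endoplasmic reticulum, gave 11386, 12587 and 10193 against 11392, 17637 and 15117, with groups that overlapped, at 0.35 ± 0.19 (SE, limma adjusted p = 0.163). Hspa9, the HSP70 of mitochondria, stood at 0.27 ± 0.17 and Hspa4, an HSP110 protein, at 0.03 ± 0.20. Other probe sets of these genes were called. Over all tested probe sets Hspa9 ran from -0.39 to 1.43 and the family member Hyou1 from 0.08 to 1.46, each with 2 called higher. Hspa5 ran from -0.53 to 0.35 and the member Hspa14 from -1.57 to -0.12, each with 1 called lower. Hspa4 also had 1 called lower, while Hspa13 and Hspa4l had 0 called. Bag3, a release factor raised by Hsf1, gave 135, 186 and 251 against 563, 295 and 290, at 0.98 ± 0.36 (limma adjusted p = 0.0546), and 0.40 after quantile normalization. Bag1 stood at 0.17 ± 0.15 and Grpel1, the mitochondrial release factor, at 0.02 ± 0.14. After quantile normalization 1 family member passed upward and 1 release factor downward, and after median centring 4 family members and 5 release factors passed downward. At an unadjusted p under 0.05 in the brightest probe sets, 0 of the 8 family members passed. Of the 10 release factors 1 passed upward and 1 downward.

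J-domain proteins, which choose the clients of HSP70, included the largest rise among the tested chaperone genes. Of 41 tested 9 rose, 6 fell and 26 did not pass, with a median of -0.02, beside 26.1% upward and 19.7% downward over all genes tested. Of the 9 that rose 2 had a wild-type-labelled mean under the filter. Higher and lower calls were 7 and 5 after quantile normalization, 7 and 3 after cyclic loess and 5 and 22 after median centring. Dnajb2, a J-domain protein that steers clients to the proteasome, gave 178, 190 and 161 in the wild-type-labelled group and 2487, 1843 and 2300 in the knockout-labelled group. No values overlapped, and it rose by 3.64 ± 0.20 on the log2 scale (SE, limma adjusted p = 1.07e-05). Dnaja4 rose by 2.87 ± 0.24, from 173, 175 and 234 to 1185, 1748 and 1347, and Dnajb4 by 2.58 ± 0.24, from 475, 348 and 273 to 2061, 2478 and 1876. Dnaja4 and Dnajb4 were chosen after their values were seen. All 3 genes passed upward in all 17 alternatives fitted to their brightest probe set. That count leaves out the mean of probe sets. Dnajc7, which binds both HSP70 and HSP90, fell by 0.99 ± 0.17, from 2598, 1914 and 2169 to 1079, 1157 and 1094. Dnaja1, the J-domain partner of Hspa8, did not pass at -0.25 ± 0.24 (limma adjusted p = 0.406).

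Of 19 tested HSP90 paralogs and partners 2 rose, 3 fell and 14 did not pass, with a median of -0.11. The shares over all genes tested were 26.1% upward and 19.7% downward. The list had 4 higher and 2 lower calls after quantile normalization, the same counts after cyclic loess, and 0 higher and 13 lower after median centring. St13, which links HSP70 to HSP90, gave 5078, 5352 and 4453 against 2499, 1872 and 2032 and fell by 1.22 ± 0.17 (SE, limma adjusted p = 0.000677). Fkbp5, a peptidyl-prolyl isomerase of steroid receptor complexes, and also chosen after its values were seen, fell by 1.02 ± 0.19, and both passed in all 17 such alternatives, although 1 of the 3 tested probe sets of St13 gave 0.68. Unc45a, a chaperone of myosin, rose by 1.05 ± 0.24, and Trap1, the mitochondrial HSP90, by 0.66 ± 0.16. After median centring both lost their call, at 0.24 and -0.15. Stip1, which joins HSP70 and HSP90, stood at 0.01 ± 0.20 and Cdc37, the adaptor for kinases, at -0.04 ± 0.18. Hsp90b1, the HSP90 of the endoplasmic reticulum, stood at 0.47 ± 0.23 and Ahsa1, which stimulates HSP90, at -0.39 ± 0.15. None of these passed at the brightest probe set, and the other tested probe set of Ahsa1 was called higher, at 1.48.

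Small heat shock proteins, which hold unfolded proteins without ATP, were dim and higher on the knockout-labelled arrays. Of 8 listed, 5 were above the filter, and all 5 rose, with a median of 1.22, beside 26.1% upward over all genes tested. Hspb1 gave 252, 418 and 306 against 872, 1122 and 1100, with no overlap, and rose by 1.69 ± 0.24 (SE, limma adjusted p = 0.000921). It passed upward in all 17 such alternatives, whereas under each of the 3 other scalings 1 of the 5 passed. Cryab had a wild-type-labelled mean under the filter. Dim genes as a whole were higher on these arrays, with a median difference of 0.94 in the 3200 dimmest genes tested and -0.25 in the 3200 brightest. The hepatocyte and stromal marker sums given above moved in the same direction, and their part in these rises was not tested.

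The cytosolic chaperonin TRiC is a ring that folds actin and tubulin, and prefoldin delivers to it. Of 14 tested genes 1 rose, 1 fell and 12 did not pass, beside 26.1% upward and 19.7% downward over all genes tested. The median of the list was -0.12. After quantile normalization 2 were higher and 1 lower, after cyclic loess 3 and 0, and after median centring 0 and 10. Tcp1 gave 10657, 10884 and 10380 against 10138, 11391 and 11645, at 0.05 ± 0.14, and Cct2 stood at 0.14 ± 0.15. Cct3, another TRiC subunit, fell by 0.53 ± 0.15 (SE, limma adjusted p = 0.0174), while its 5 tested probe sets ran from -1.02 to 0.80. Its call was lost after cyclic loess (limma adjusted p = 0.109), without a variance trend (0.053), and without wild-type-labelled array 1 (0.0564) or 2 (0.0661) or knockout-labelled array 2 (0.0664) or 3 (0.0602). Pfdn1, a prefoldin subunit, rose by 0.63 ± 0.16 (limma adjusted p = 0.013), a difference that was -0.18 after median centring.

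The difference between the mitochondrial list and that of the endoplasmic reticulum was not tested. Of 13 tested mitochondrial chaperones and proteases 5 rose and 0 fell (median 0.27), beside 26.1% higher and 19.7% lower over all genes tested. At an unadjusted p under 0.05, 2 of the 13 stood downward. Clpx, the unfoldase that in erythroid cells also activates haem synthesis, gave 520, 483 and 452 against 967, 986 and 926 and rose by 0.99 ± 0.18 (SE, limma adjusted p = 0.00279), a call lost after median centring, where the list held 0 higher and 5 lower calls. Of 15 chaperones of the endoplasmic reticulum 0 rose and 4 fell (median -0.26), with 0 at an unadjusted p under 0.05 upward, beside 19.7% lower over all genes tested. Median centring gave 11 lower calls, quantile normalization 3 and cyclic loess 2. Sdf2l1, a partner of Hspa5, gave 1705, 1648 and 2295 against 1039, 1029 and 1179 and fell by 0.78 ± 0.18 (SE, limma adjusted p = 0.00894), and it passed in all 17 such alternatives.

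Among heat shock factors and their regulators 4 of 8 tested genes rose (Hsf2, Hsf4, Hsf5 and Hsf2bp), beside 26.1% over all genes tested. The other 4 did not pass, and the median of the list was 0.71. There was 1 higher call after quantile normalization and 1 after cyclic loess, and median centring gave 1 higher and 4 lower. Hsf4 and Hsf2bp had wild-type-labelled means under the filter, and Hsf5 and Hsf2bp, named after their values were seen, lost their calls under all 3 scalings. Hsf2, a heat shock factor active in development, gave 131, 180 and 91.7 against 308, 413 and 499, with no overlap, and rose by 1.63 ± 0.35 (SE, limma adjusted p = 0.00601). It passed in all 16 alternatives that hold its probe set. Hsf4, known from the lens, rose by 2.11 ± 0.56, but its wild-type-labelled signals of 23.9, 112 and 49 were dim, and quantile normalization (limma adjusted p = 0.0997), cyclic loess (0.11) and median centring (0.062) ended its call. Hsbp1, which binds heat shock factors, stood at -0.16 ± 0.16, and its other tested probe set was called lower, at -3.06. Of 17 other classical Hsf1 targets 4 rose and 0 fell, beside 26.1% upward and 19.7% downward over all genes tested. The median was 0.14, and 1 stood at an unadjusted p under 0.05 downward. Of the 4 that rose 1 had a wild-type-labelled mean under the filter. Higher and lower calls were 2 and 0 after quantile normalization and after cyclic loess, and 2 and 8 after median centring. The largest rise was in Serpinh1, the collagen chaperone of the endoplasmic reticulum, which went from 169, 259 and 280 to 2119, 1555 and 1284, by 2.81 ± 0.27 (SE, limma adjusted p = 0.000111). Col1a1, a collagen chain of stromal cells, gave 87, 60.1 and 91.8 against 4065, 2663 and 3095 on the same arrays, and its part in the Serpinh1 result was not tested.

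**Figure D4:**
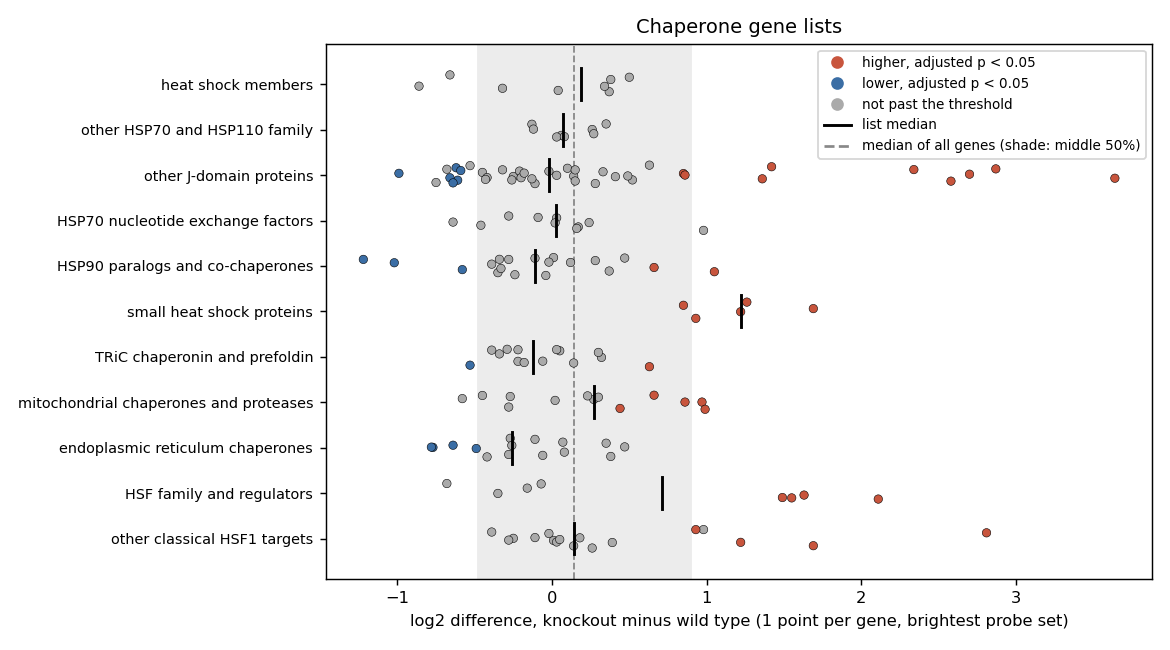
Log2 difference, knockout minus wild type, of each tested gene of the heat shock members and 10 chaperone lists at its brightest probe set, with a black bar at the median of each list. The 5 small heat shock proteins all lie to the right, at a median of 1.22, the endoplasmic reticulum list has its 4 called genes on the left, and 9 J-domain genes are called on the right.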

How the data were processed

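RNA of sorted fetal liver progenitors was measured on 6 Affymetrix arrays. The deposited values are MAS5 signal intensities, for which the submitters' processing notes name Affymetrix Expression Console, and tests of the table showed a trimmed mean of 500 on every array (2% left out at each end). Scanner files were not used. Of 45101 probe sets 34958 have 1 gene symbol in the platform annotation, 932 several and 9211 none, and 34754 were matched to RefSeq (GRCm38.p6), which also gave promoter sequences and coordinates. Signals were floored at 1 (303 values), put on the log2 scale and filtered at the 40th percentile of the mean log2 signal. The test was limma (version 3.58.1, under R 4.3.3), with a variance trend, over 27023 probe sets with Benjamini-Hochberg adjustment, and no sample was dropped or imputed. Genes were counted at their brightest probe set. On simulated data 44% of changes of 2 log2 units upward and 32% downward were recovered, and 10% and 4% of changes of 1. There were 50 changed probe sets per size among 27023, and 1 false call in all. Far fewer probe sets were changed there than the 43.8% called in the data, so the rates do not carry over. Figures used Python 3.11.15 and matplotlib 3.10.9.

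The members and lists were chosen with earlier results of these data known. Named genes were the members, the gene with the largest rise and fall among called genes without overlap in each list, a fixed set of co-chaperones and clients, and the 3 genes nearest to Hspa1b. Hsf1, Hsp90ab1 and Ptges3 were not analysed here. There were 19 alternatives.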

Additional observations from a re-analysis of the deposited data

How the results depend on the processing

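Over 319 recomputed differences of the member probe sets, 266 kept direction and side of the threshold, 16 passed newly and 11 lost their call with the same sign, and 26 changed sign. Of the 26, Hspe1 1422579_at also lost its call and Hsph1 1425993_a_at passed (limma adjusted p = 0.0262), both after median centring. Member calls were 2 higher and 1 lower: 2 lower after quantile normalization, 0 higher and 5 lower after median centring, 4 higher after cyclic loess, 1 higher without a variance trend, 5 higher with array weights, 1 higher and 0 lower of 8 genes with 1 probe set per gene or with the mean of probe sets, and 0 higher at a threshold of 0.01. Leaving out 1 array gave 0 to 2 higher and 1 to 1 lower. The other chaperones had 25 higher and 14 lower calls: 8 and 67 after median centring, 11 and 5 at the threshold of 0.01, and 8 lower after cyclic loess, 9 without a trend, 34 with array weights and 8 with the mean of probe sets. Leaving out 1 array gave 14 to 29 higher and 8 to 21 lower. Same-numbered arrays deviated together only weakly (correlations 0.042, 0.054 and 0.076), so the numbers were not taken to pair arrays, although every array correlated best with its own number, and the replicate block gave 2 higher and 1 lower member calls and 21 higher and 15 lower other chaperones. Median centring changed the sign of Dnajb1 1416756_at (-0.47), Hspa8 1420623_x_at (-0.52) and 1431182_at (-0.48), Hspe1 1422579_at (-0.23) and 1450668_s_at (-0.44), Hspd1 (-0.44), Hsph1 1423566_a_at (-0.48) and 1425993_a_at (-0.78) and Hsp90aa1 1426645_at (-0.22), 1437497_a_at (-0.47) and 1438902_a_at (-0.32). Array weights did so for Hspa1a (0.27), Hspa1b 1427126_at (0.10) and 1427127_x_at (0.06) and Hsph1 1425993_a_at (-0.12). Quantile normalization did so for Hspa8 1420622_a_at (0.03) and 1420623_x_at (-0.01), cyclic loess for 1420622_a_at (0.17), and the mean of probe sets for Dnajb1 (-0.34) and Hspa8 (0.07). Leaving out 1 array took Hspa1a from -1.14 to 0.16 and Hspa8 1420622_a_at from -0.19 to 0.16. Without wild-type-labelled array 3, Hspa1a was 0.16, Hsph1 1425993_a_at -0.07 and Hspa8 1420622_a_at 0.04. Without knockout-labelled array 1, Hspa1a was 0.06 and Hsph1 1425993_a_at -0.14, and without knockout-labelled array 2, Hspa8 1420622_a_at was 0.16. The cause of these changes was not tested. In simulated data with 3 arrays per group 10% of rises and 4% of falls of 1 log2 unit were recovered. In the simulation 50 probe sets per size were changed among 27023, whereas 43.8% of probe sets tested were called here. These rates therefore do not give the recovery in these data, and a missed call does not show that a difference is absent.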

Other observations

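Transcripts of the clients for which erythroid chaperones are best known were higher on the knockout-labelled arrays. Eif2ak1, the haem-regulated kinase held by HSP90, gave 1210, 1115 and 1678 against 4619, 5647 and 5689 and rose by 2.01 ± 0.19 on the log2 scale (SE, limma adjusted p = 0.000106). Gata1, the erythroid factor shielded by HSP70, gave 1265, 1290 and 1830 against 5243, 5353 and 5452 and rose by 1.89 (limma adjusted p = 9.61e-05). Erythroid markers rose on the same arrays, as given above, and their part in both rises was not tested.

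Probe sets of 1 chaperone gene often went different ways. Of 70 other chaperone genes with at least 2 tested probe sets, 35 had differences of both signs, and 4 had calls in both directions. Among the heat shock members Hspa8 and Dnajb1 had both signs.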
